A study of Mus musculus with 4 samples.

Results

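Solute carriers are membrane proteins that move amino acids, sugars, organic acids, nucleosides, vitamins, metals and ions across the plasma membrane and the membranes of organelles. The members described here are the 168 gene symbols that begin with Slc and a digit, are listed in all 4 libraries and have 100 or more UMIs (unique molecular identifiers, each standing for 1 captured transcript) over the 4 libraries together. They come from 260 such symbols listed in any library, of which 201 were listed in all 4, and from 15301 genes listed in all. Of the 168, 163 name a carrier, from 44 families, and 5 name none: Slc9a3r1 and Slc9a3r2 (scaffold proteins that bind sodium-proton exchangers), Slc4a1ap, Slc7a6os and Slc2a4rg-ps. Just inside the threshold were Slc25a30, Slc39a8 and Slc23a2 with 119, 124 and 128 UMIs. Just outside it were Slc16a5, Slc9a5 and Slc6a20b with 87, 86 and 84 UMIs. Slc2a1, the widely expressed glucose carrier GLUT1, had 32 UMIs in all (14, 7, 4 and 7) and is no member. The members were chosen by their summed UMIs, so their levels are a description. Without the library that gave them most UMIs, 13 members would not have reached the threshold, Slc2a6, Slc10a1, Slc12a2, Slc25a27 and Slc27a6 among them.

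The study profiled intraepithelial lymphocytes (IELs), T cells that reside between the epithelial cells of the gut, from mouse colon. Live CD3+ CD8α+ cells were sorted as TCRβ+ or as TCRγδ (the titles say Tcrgd, the cell type field names TCRγ) and sequenced with 10x single-cell 3′ chemistry, with 1 library per sort and genotype. The genotypes are labelled Tcf7WT and Tcf7KO. All 4 libraries carry the strain label E8IcreTcf7fl/fl, so only the genotype label separates them: the knockout rests on Cre under the E8I element of the CD8α locus and a floxed Tcf7, and what the Tcf7WT mice lacked is not given in the labels. TCF-1, the product of Tcf7, is a transcription factor that T cells use from their earliest progenitors on. The number of mice and any pooling are not stated, and no library has a replicate. No test between groups is therefore possible, and the intervals below are 95% and cover counting error only.

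T cells take up nutrients according to their state. Resting cells run low uptake, whereas activation raises amino acid carriers such as the CD98 heavy chain Slc3a2 with its light chain Slc7a5, glucose carriers and lactate exporters. IELs are held in a partly activated, granzyme-bearing state in the epithelium, next to the dietary and bacterial metabolites of the gut.

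After cells with 10 or more summed UMIs of Krt8, Krt19, Pigr and Epcam were left out (11, 3, 18 and 20 cells), 7592 cells remained for TCRβ with Tcf7WT, 5782 for TCRβ with Tcf7KO, 1870 for TCRγδ with Tcf7WT and 1491 for TCRγδ with Tcf7KO. Sets of 4 values keep this order. They held 20159687, 18262777, 6093349 and 6740143 UMIs, with medians of 2430, 2860, 3190 and 4352 UMIs per cell. Between 1 and 10 barcodes were shared by a pair of libraries, 26 over all pairs. T cell markers were listed in every library (7 of 7, summed 9724, 9789, 11700.1 and 12771 CPM). Trdc, the δ chain, was at 1978 and 2031 CPM in the TCRγδ libraries against 15.5 and 14.8 CPM in the TCRβ libraries. Trac, the α chain, was less separated, at 976.5, 907.6, 489.9 and 420.8 CPM, and the cause was not tested. Tcf7 itself was at 149, 107.5, 46.4 and 15.4 CPM; a 3′ tag outside the floxed part does not check the deletion, and where these tags lie was not analysed here. Other epithelial markers summed to 36, 33.7, 83.9 and 52.8 CPM in the kept cells, B and plasma cell markers to 36.6, 31.5, 38.7 and 29.2 CPM with 3, 2, 1 and 1 of 6 listed, and myeloid markers to 3.47, 6.02, 13.1 and 11.4 CPM with 2 of 6 listed. The granzymes Gzma and Gzmb together stood at 2549.5, 7058, 17928 and 28498 CPM.

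Levels are given as CPM, the member's UMIs with the kept cells of each library scaled to 1000000 UMIs. These 3′ counts are not divided by transcript length, so levels are compared between libraries and not read as a ranking of carriers. In single libraries a lower CPM can come from fewer cells that express a carrier or from less RNA per cell, which cannot be told apart in these sums. Together the 168 members made up 5978, 5819, 5595 and 5566 CPM, that is, under 1% of the transcripts of each library. A member's UMIs over the 4 libraries ran from 119 to 25843, with a median of 937.5.

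By substrate class, the 37 mitochondrial carriers (family 25) summed to 1504, 1409.8, 1377 and 1389 CPM. Among them the ADP/ATP exchangers Slc25a5 and Slc25a4 stood at 357, 348, 309 and 330.3 CPM and at 206, 169, 169.9 and 159.8 CPM, and the oxoglutarate carrier Slc25a11 at 176, 159.7, 171 and 163 CPM. The 14 amino acid carriers summed to 1322, 1387, 1125 and 1171 CPM. Slc38a2, a sodium-coupled carrier of small neutral amino acids such as glutamine and alanine, stood at 531, 573, 376 and 356 CPM, and its relative Slc38a1 at 154, 139, 104 and 95 CPM. Slc3a2 stood at 341, 386, 324 and 426 CPM. Both Slc38 carriers were lower in the TCRγδ libraries, whereas Slc3a2 was highest in the TCRγδ Tcf7KO library.

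Between sorts, several class sums differed. The 10 carriers of monocarboxylates and other organic acids summed to 114, 122, 159 and 155 CPM, a log2 ratio of the sums of 0.47 (0.36 to 0.58) for TCRγδ over TCRβ in Tcf7WT and 0.34 (0.23 to 0.45) in Tcf7KO. Leaving out of each sum the member whose CPM differed most, a setting added after the values were seen, left 0.20 (0.08 to 0.32) and 0.02 (-0.10 to 0.13) here, without Slc16a11. In Tcf7KO the ratios of 5 of the 10 were above 0 and those of 5 below, with a median of -0.03. The 4 carriers of nucleosides and nucleobases summed to 162, 145, 185 and 198 CPM, with sort ratios of 0.20 (0.10 to 0.29) and 0.45 (0.35 to 0.55), and of 0.04 (-0.14 to 0.21) and 0.03 (-0.15 to 0.21) without Slc28a2. In the other direction, the 23 carriers of vitamins, choline, lipids, peptides and organic ions summed to 486, 457, 383 and 394 CPM, with sort ratios of -0.34 (-0.41 to -0.28) and -0.22 (-0.28 to -0.15), and of -0.28 (-0.35 to -0.20) and -0.11 (-0.18 to -0.04) without Slc6a6. Amino acid carriers had sort ratios of -0.23 (-0.27 to -0.19) and -0.24 (-0.28 to -0.21). Without Slc38a2 the other 13 had -0.08 (-0.13 to -0.03) and 0.00 (-0.04 to 0.05), so that in Tcf7KO their sums were 815 and 814 CPM in TCRγδ and TCRβ. By genotype the class sum farthest from equality was that of the nucleoside carriers in TCRβ, at -0.16 (-0.23 to -0.08) for Tcf7KO over Tcf7WT and -0.09 (-0.22 to 0.04) without Slc28a2. The 24 carriers of metals and haem (535, 524, 570.3 and 548 CPM), the 20 of inorganic ions (470.3, 444, 450.5 and 414 CPM), the 21 of nucleotide sugars and acetyl-CoA (483, 457, 489 and 457 CPM) and the 10 of sugars, sugar phosphates and inositol (397, 378, 396 and 389.9 CPM) had log2 ratios of the sums between -0.12 and 0.09 in all 4 comparisons. Of these sums, that of the ion carriers moved farthest by 1 member: without Slc26a10 its sort ratios were -0.16 (-0.23 to -0.10) and -0.30 (-0.37 to -0.23).

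**Figure D1:**
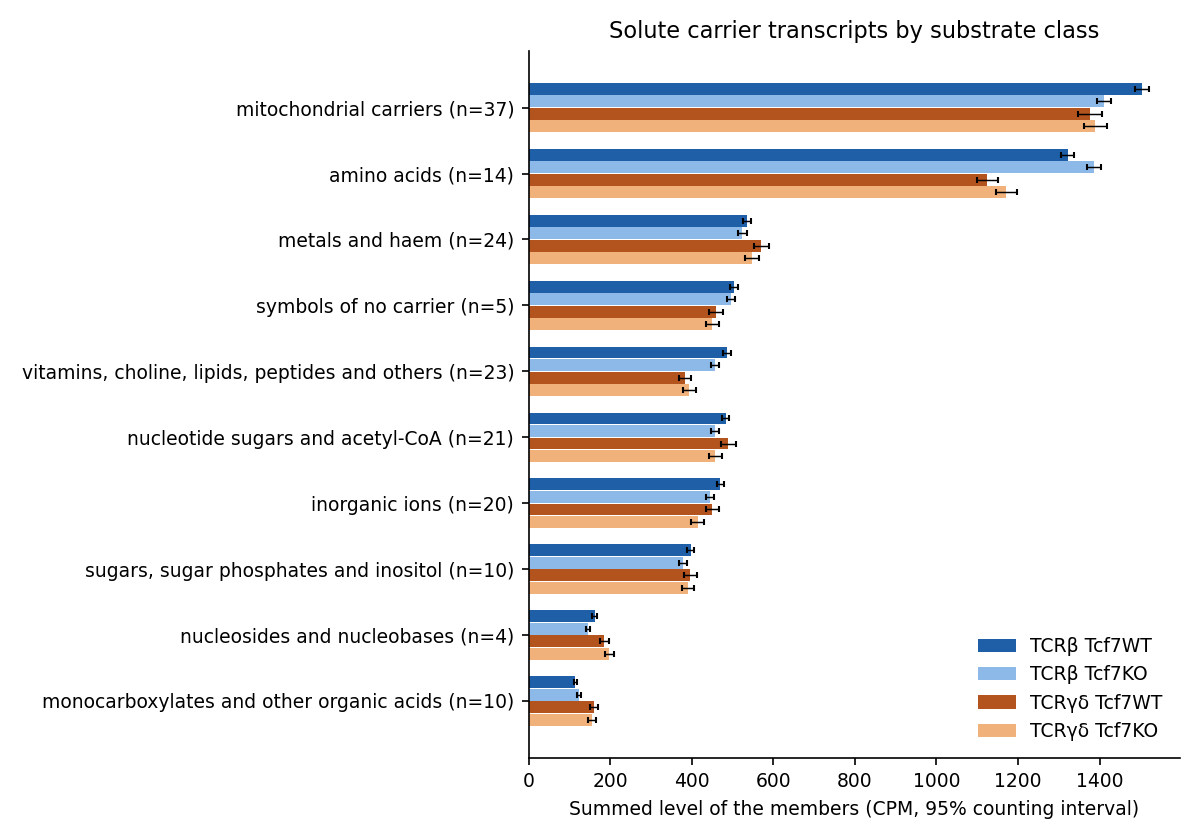
Summed CPM of the members of each substrate class (y axis, number of members in parentheses) in the 4 libraries (bars, x axis in CPM from 0); error bars are 95% counting intervals. The monocarboxylate sum is higher in both TCRγδ libraries (159 and 155 against 114 and 122 CPM) and the amino acid sum lower, and in Tcf7KO neither differs without Slc16a11 or Slc38a2 beyond its counting interval.

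A member is called higher or lower below when its CPM differed at least 1.5-fold, the 95% interval of the ratio excluded equality and the pair of libraries held 20 or more of its UMIs. Between genotypes in TCRβ cells, 2 of 168 members were called higher and 6 lower in the Tcf7KO library. Over all 11000 genes measured in the same way, 1.79% were called higher and 2.35% lower, against 1.19% and 3.57% of the members. In TCRγδ cells 2 of 166 members were called higher and 9 lower, or 1.20% and 5.42%, against 2.23% and 5.75% of 10878 genes. The members' shares are near the background in both sorts. Their median log2 ratio was -0.10 in TCRβ and -0.06 in TCRγδ, beside -0.07 and -0.06 over all genes. Across the 166 members measured in both, the genotype ratios of the 2 sorts, which share no library, pointed the same way for 62.0%. Across these members, which are no independent replicates, Pearson's r was 0.50 and Spearman's rho 0.33. This agreement, and the overlap of calls given next, were not computed over all genes, so they are not read as particular to carriers. The members far from 0 carry few UMIs.

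**Figure D2:**
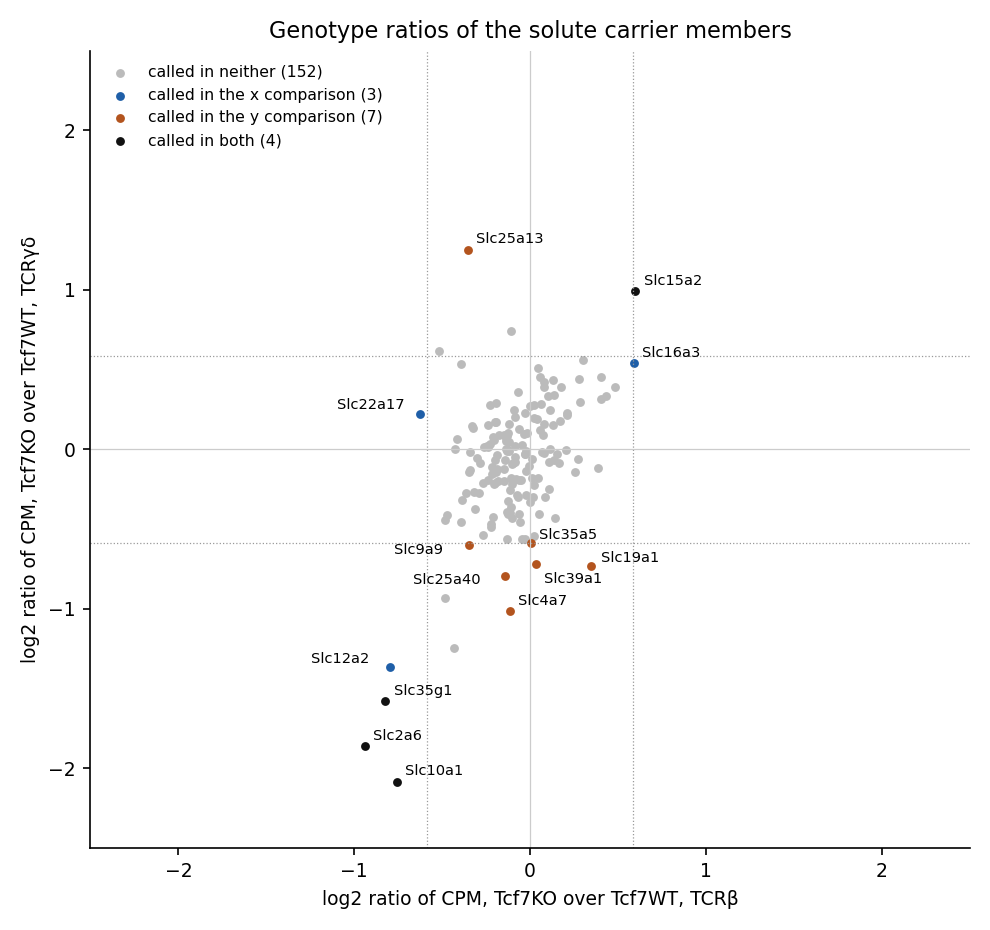
Each point is 1 of 166 members; the x axis is the log2 ratio of CPM for Tcf7KO over Tcf7WT in TCRβ cells and the y axis the same in TCRγδ cells, with dotted lines at 1.5-fold. Slc2a6, Slc10a1 and Slc35g1 are called lower in both sorts and Slc15a2 higher in both, while most members lie near 0 on both axes.

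Of the called members, 4 were called in both sorts, each in the same direction: Slc2a6, Slc10a1 and Slc35g1 lower and Slc15a2 higher in Tcf7KO. Slc2a6 encodes GLUT6, a hexose carrier of intracellular membranes. Its level was 7.14, 3.72, 3.77 and 1.04 CPM (144, 68, 23 and 7 UMIs). The Tcf7KO library was the lower one in each sort, with log2 ratios of -0.94 (-1.38 to -0.51) in TCRβ and -1.86 (-3.33 to -0.59) in TCRγδ. Slc10a1, best known as the hepatocyte bile acid importer NTCP, stood at 3.42, 2.03, 3.77 and 0.890 CPM (69, 37, 23 and 6 UMIs). Its ratios were -0.76 (-1.37 to -0.16) and -2.08 (-3.67 to -0.75), and 6 UMIs are all that the TCRγδ Tcf7KO library held. Slc35g1, a member of the nucleotide sugar carrier family, stood at 8.43, 4.76, 7.55 and 2.52 CPM. Its ratios were -0.82 (-1.21 to -0.44) and -1.58 (-2.48 to -0.75). Slc15a2, the di- and tripeptide importer PEPT2, went the other way with 10.8, 16.4, 5.74 and 11.4 CPM (218, 299, 35 and 77 UMIs). Its ratios were 0.60 (0.34 to 0.86) and 0.99 (0.40 to 1.61).

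TCF-1 binds DNA, and the 250 bases before the start of these 4 genes, which moved alike in both sorts, are shown, from RefSeq on GRCm38.p6, read 5′ to 3′ on the gene's strand. Capitals mark the core letters CTTTG or their complement CAAAG, a search added after the ratios were known. Slc2a6 lies on chromosome 2 and Slc10a1, Slc15a2 and Slc35g1 on chromosomes 12, 16 and 19; all but Slc35g1 are on the minus strand. Slc10a1 has a further window at a start 626 bases downstream, which is not shown.
Slc2a6 (chr2:27027999-27028248, minus strand): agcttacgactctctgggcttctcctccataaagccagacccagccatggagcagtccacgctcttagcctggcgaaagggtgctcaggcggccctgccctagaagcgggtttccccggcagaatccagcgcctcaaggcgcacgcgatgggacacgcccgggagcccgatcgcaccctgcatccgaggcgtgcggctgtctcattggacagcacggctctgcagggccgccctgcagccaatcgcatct
Slc10a1 (chr12:80968706-80968955, minus strand): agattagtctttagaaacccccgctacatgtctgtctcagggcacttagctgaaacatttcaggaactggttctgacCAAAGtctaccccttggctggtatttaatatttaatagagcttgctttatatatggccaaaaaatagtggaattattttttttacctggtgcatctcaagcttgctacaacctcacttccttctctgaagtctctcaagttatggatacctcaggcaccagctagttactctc
Slc35g1 (chr19:38395730-38395979, plus strand): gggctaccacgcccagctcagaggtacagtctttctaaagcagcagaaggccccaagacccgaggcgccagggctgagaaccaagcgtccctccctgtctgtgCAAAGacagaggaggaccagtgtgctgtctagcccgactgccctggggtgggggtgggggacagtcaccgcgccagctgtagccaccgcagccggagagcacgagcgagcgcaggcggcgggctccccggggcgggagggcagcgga
Slc15a2 (chr16:36784963-36785212, minus strand): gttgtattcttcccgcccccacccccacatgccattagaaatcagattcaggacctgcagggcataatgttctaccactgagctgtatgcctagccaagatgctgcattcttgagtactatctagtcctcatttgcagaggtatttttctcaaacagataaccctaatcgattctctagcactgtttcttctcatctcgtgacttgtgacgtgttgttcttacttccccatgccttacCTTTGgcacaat
The core letters occur once in the windows of Slc10a1, Slc35g1 and Slc15a2, 173, 147 and 12 bases before the start, and not in that of Slc2a6. In the same 250 bases, 52.2% of 27025 genes and 40.9% of the 127 members with a window hold them. A longer form, these core letters followed by AA, by AT or by TT, was searched on both strands of the whole 300-base windows, with any overlap counted. It occurs in none of the 4 genes, in 15.7% of all genes and in 14 of the 127 members (11%). A match is a description of the letters and no binding site.

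The share of granzyme-rich cells also differed between genotypes, so the ratios are given within it. Cells with 5 or more summed Gzma and Gzmb UMIs made up 12.7% of the TCRβ Tcf7WT library, 35.2% of TCRβ Tcf7KO, 70.0% of TCRγδ Tcf7WT and 92.4% of TCRγδ Tcf7KO. This is a range and no cell type: 370, 560, 163 and 45 cells had 3 to 7 such UMIs. Within the range, 5 members were called higher in Tcf7KO and 10 lower in TCRβ, against 2.46% and 4.24% of genes there. In TCRγδ 5 were higher and 8 lower, against 2.72% and 5.20%. Of the genotype calls over all cells, 2 of 8 in TCRβ and 7 of 11 in TCRγδ were kept within the range. The share kept over all genes is not given here, so these counts are not read as particular to carriers. Ratios of single members within the range are given here without intervals. Fewer UMIs enter them, 3159561 in TCRβ Tcf7WT against 20159687 over all kept cells. Slc15a2 had log2 ratios within the range, for Tcf7KO over Tcf7WT, of 1.60 in TCRβ and 1.04 in TCRγδ, beside 0.60 and 0.99 over all cells. Slc2a6 had -0.63 and -1.33, and Slc35g1 -2.06 and -1.48. Slc10a1 changed sign in TCRβ, at 0.34 from 4 and 12 UMIs, and stood at -1.26 in TCRγδ. Slc35g1 is also an epithelial transcript: its CPM in the left-out cells was 24 times that in the kept cells. Scaled by the other epithelial markers, RNA like that of the left-out cells would account for 3.35%, 4.28%, 7.60% and 8.62% of its UMIs in kept cells. With no cell left out, its TCRγδ ratio was -0.13.

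The remaining genotype calls were made in 1 sort each. In TCRβ cells the lactate exporter Slc16a3 (MCT4) was higher in Tcf7KO, with 8.83, 13.3, 14.8 and 21.5 CPM and a log2 ratio of 0.59 (0.31 to 0.88). Its TCRγδ ratio, 0.54 (0.15 to 0.94), was of like size and just short of 1.5-fold. Within the granzyme range the TCRβ ratio of Slc16a3 was 0.28. Lower in TCRβ Tcf7KO were the fatty acid carrier Slc27a6 (FATP6; -0.96 (-1.45 to -0.49)), the sodium-potassium-chloride cotransporter Slc12a2 (NKCC1; -0.79 (-1.34 to -0.27)) and the lipocalin receptor Slc22a17 (-0.63 (-1.20 to -0.07)). Within the granzyme range the TCRβ ratios of Slc27a6, Slc12a2 and Slc22a17 were -0.61, -0.55 and -0.53. The CPM of Slc12a2 in the left-out epithelial cells was 80.6 times that in the kept ones. RNA like theirs, scaled as above, would account for 5.32%, 14.6%, 21.2% and 54.8% of its UMIs.

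In TCRγδ cells the largest called difference on a well-measured carrier was that of Slc4a7 (NBCn1), a sodium-bicarbonate cotransporter that loads base into the cell. Its level was 48.1, 44.4, 51.2 and 25.4 CPM (970, 811, 312 and 171 UMIs). The TCRγδ Tcf7KO library alone was low, with a ratio of -1.01 (-1.29 to -0.74) against -0.12 (-0.25 to 0.02) in TCRβ. The zinc importer Slc39a1 (ZIP1) had 31.6, 32.4, 44.8 and 27.2 CPM, high in TCRγδ Tcf7WT, with ratios of -0.72 (-1.001 to -0.45) and 0.03 (-0.13 to 0.20). Also lower in TCRγδ Tcf7KO were the mitochondrial glutathione carrier Slc25a40 (-0.79 (-1.18 to -0.41)), the reduced folate carrier Slc19a1 (-0.73 (-1.47 to -0.01)), the endosomal sodium-proton exchanger Slc9a9 (-0.60 (-0.92 to -0.29)) and the nucleotide sugar family member Slc35a5 (-0.59 (-0.95 to -0.22)). Of these calls, that of Slc35a5 was kept in 3 of 11 alternative settings, and those of Slc9a9 and Slc19a1 in 6. Slc25a13 (citrin, the aspartate-glutamate carrier) was the further member called higher, at 1.25 (0.21 to 2.40). It had 5.80, 4.54, 1.81 and 4.30 CPM, so the 11 UMIs of the TCRγδ Tcf7WT library were the low value among the 4.

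The genotype ratios themselves were compared between the sorts for all 168 members. The interval of the difference, TCRγδ minus TCRβ on the log2 scale, excluded 0 for 27 of them, 15 below and 12 above. It is a normal approximation from the counts of the 4 libraries. With 168 intervals some exclude 0 by counting error, and no replicate bounds the rest. The share over all genes was not computed, so the count is not read as particular to carriers. Below 0 were Slc19a1 at -1.08 (-1.83 to -0.32), Slc4a7 at -0.90 (-1.20 to -0.60), Slc39a1 at -0.75 (-1.07 to -0.44) and Slc25a40 at -0.65 (-1.07 to -0.23). The glucose carrier Slc2a3 (GLUT3), with 34.8, 35.3, 57.4 and 39.3 CPM, had a difference of -0.57 (-0.85 to -0.29): it was high in the TCRγδ Tcf7WT library alone. The lactate and pyruvate carrier Slc16a1 (MCT1), with 26.3, 25.8, 19.5 and 13.2 CPM, had -0.54 (-0.97 to -0.10). Above 0 were Slc25a13 at 1.61 (0.53 to 2.69), the biotin and pantothenate carrier Slc5a6 at 0.93 (0.21 to 1.66), Slc26a10 at 0.40 (0.15 to 0.65), the concentrative nucleoside carrier Slc28a2 at 0.36 (0.20 to 0.53) and Slc3a2 at 0.21 (0.12 to 0.31).

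By class, no amino acid carrier among 14 and no nucleoside carrier among 4 was called by genotype in either sort. Their log2 ratios ran from -0.24 to 0.18 and from -0.46 to 0.39 for amino acids in TCRβ and TCRγδ, and for nucleosides from -0.19 to 0.02 and from -0.30 to 0.17. Of 37 mitochondrial carriers none was called in TCRβ, and Slc25a13 and Slc25a40 were called in TCRγδ. Of the 24 carriers of metals and haem only Slc39a1 was called, in TCRγδ. Over all genes 1.79% were called higher and 2.35% lower in TCRβ, and 2.23% and 5.75% in TCRγδ. At these shares few calls fall in sets of such size, so the counts are not read as traits of a class. The inositol carrier Slc5a3 (SMIT1) missed the 1.5-fold bound in both sorts, with 70.7, 93.4, 67.3 and 92.1 CPM and ratios of 0.40 (0.30 to 0.50) and 0.45 (0.27 to 0.64). It overlaps Mrps6 on the same strand, which stood at 38, 41.7, 35.3 and 48.1 CPM, so reads of the pair may be shared.

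**Figure D3:**
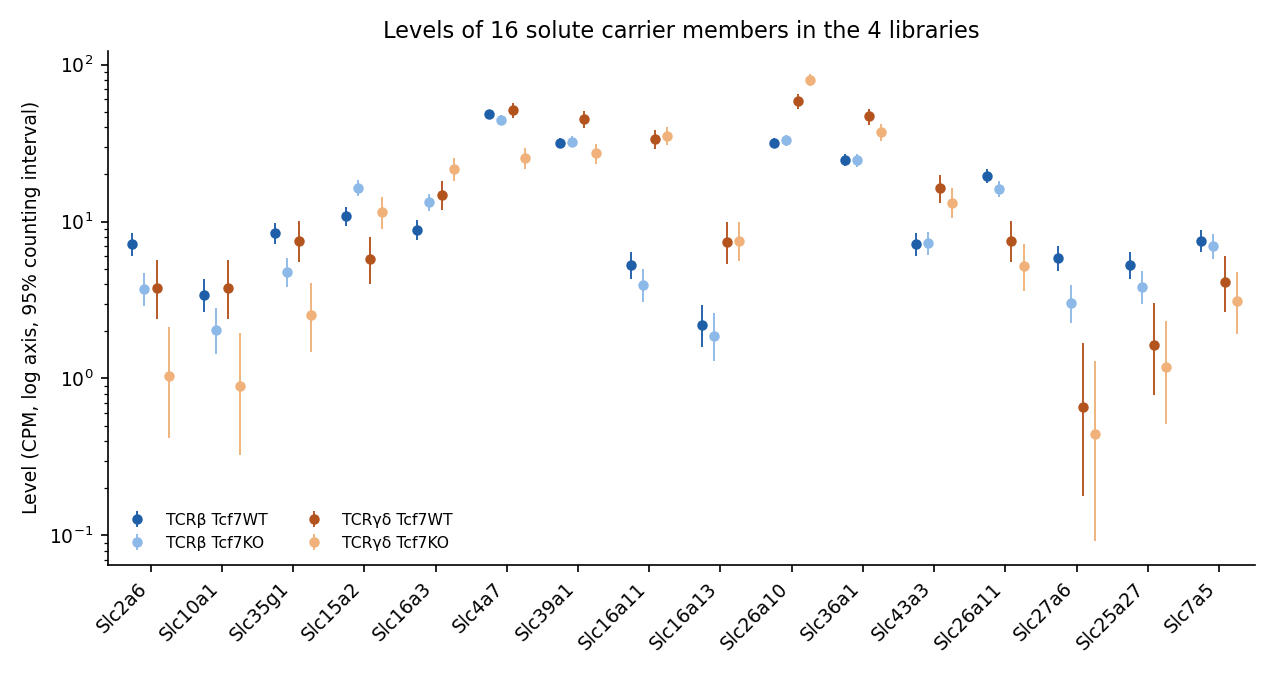
CPM (y axis, log scale) of 16 members in the 4 libraries, with 95% counting intervals. Slc2a6, Slc10a1 and Slc35g1 are lower and Slc15a2 higher in the Tcf7KO library of each sort; Slc16a11 and Slc16a13 are high in both TCRγδ libraries, and Slc27a6 and Slc25a27 low there.

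Between sorts the differences were larger. In Tcf7WT, 10 of 168 members were called higher in TCRγδ than in TCRβ and 16 lower, or 5.95% and 9.52%, against 6.91% and 7.30% of 11004 genes. In Tcf7KO the counts were 14 and 17, or 8.33% and 10.1%, against 6.08% and 8.85% of 11000 genes. The shares are again close to the background. Called in both genotypes were 6 members higher, 60% of the 10 and 42.9% of the 14, and 10 members lower, 62.5% of the 16 and 58.8% of the 17. Over the 168 members the sort ratios of the 2 genotypes, which share no library, agreed in sign for 75%. Across these members Pearson's r was 0.80 and Spearman's rho 0.69. The overlaps and this agreement were not computed over all genes, so they are not read as particular to carriers.

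**Figure D4:**
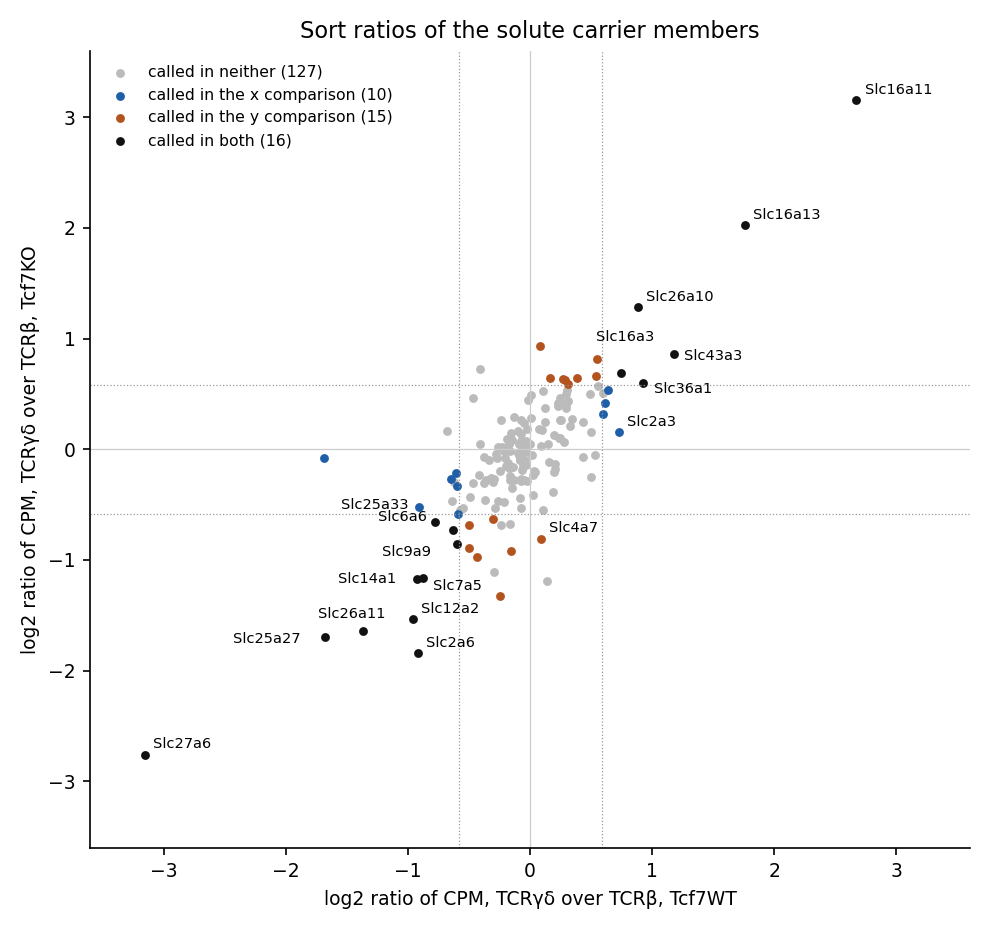
Each point is 1 of the 168 members; the x axis is the log2 ratio of CPM for TCRγδ over TCRβ in Tcf7WT and the y axis the same in Tcf7KO, with dotted lines at 1.5-fold. Slc16a11 and Slc16a13 lie farthest to the upper right (2.67 and 1.76 in Tcf7WT) and Slc27a6 farthest to the lower left (-3.16).

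The class of monocarboxylates and other organic acids, set by family number, held 4 of the 10 members called higher in TCRγδ in Tcf7WT. The class has 10 members, and 6.91% of all genes were called higher there. In Tcf7KO 3 of the class were called higher and 1 lower, beside 6.08% and 8.85% of all genes. Slc16a10, 1 of the 4 called in Tcf7WT, carries aromatic amino acids and is counted here by its family, not among the amino acid carriers. Slc16a11 (MCT11), a proton-coupled monocarboxylate carrier, stood at 5.26, 3.94, 33.5 and 35 CPM (106, 72, 204 and 236 UMIs). Both TCRγδ libraries were far above both TCRβ libraries, with log2 ratios of 2.67 (2.33 to 3.02) and 3.15 (2.76 to 3.55). Slc16a13 (MCT13) followed with 2.18, 1.86, 7.39 and 7.57 CPM and ratios of 1.76 (1.13 to 2.39) and 2.02 (1.37 to 2.69). The pair are neighbours on chromosome 11 in GENCODE M21 (GRCm38): Slc16a11 at 70212752 to 70216417 on the plus strand and Slc16a13 at 70216789 to 70221064 on the minus strand. Their 3′ ends face each other 371 bases apart, and how reads beyond either end were assigned is not given in the sources used here. Slc16a3 had 0.74 (0.36 to 1.12) and 0.69 (0.39 to 0.996), and the aromatic amino acid carrier Slc16a10 (TAT1) 0.64 (0.28 to 0.99) and 0.54 (0.23 to 0.84). Slc16a1 was lower in TCRγδ in Tcf7KO, at -0.97 (-1.31 to -0.64); with no cell left out its ratio was -0.01.

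Among amino acid carriers, the lysosomal proton-coupled carrier Slc36a1 (PAT1) was higher in TCRγδ, with 24.6, 24.6, 46.8 and 37.2 CPM and ratios of 0.93 (0.71 to 1.14) and 0.60 (0.37 to 0.83). Slc7a5 (LAT1), the large neutral amino acid carrier that pairs with Slc3a2, was lower, with 7.54, 6.95, 4.10 and 3.12 CPM and ratios of -0.88 (-1.55 to -0.26) and -1.16 (-1.90 to -0.48). Its heavy chain Slc3a2 had -0.07 (-0.15 to 0.00) and 0.14 (0.08 to 0.20). The cationic amino acid carrier Slc7a1 (CAT1) was called lower in Tcf7WT (-0.60 (-0.90 to -0.30)), and Slc38a2 and Slc38a6 in Tcf7KO (-0.69 (-0.75 to -0.62) and -0.89 (-1.52 to -0.31)).

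Nucleobase and nucleoside carriers were higher in TCRγδ in part. Slc43a3, a purine nucleobase carrier, stood at 7.19, 7.28, 16.2 and 13.2 CPM, with ratios of 1.18 (0.79 to 1.55) and 0.86 (0.45 to 1.26). Slc28a2 (CNT2) had 108, 94.2, 129.8 and 146 CPM and was called in Tcf7KO (0.63 (0.52 to 0.75)) but not in Tcf7WT (0.27 (0.15 to 0.39)). The equilibrative carrier Slc29a1 (ENT1) had -0.28 and -0.04, and its relative Slc29a3 had -0.21 and -0.48 (-0.89 to -0.09). In each genotype 2 of these 4 carriers had a ratio above 0 and 2 below. Slc35g1 was lower in Tcf7KO (-0.92 (-1.76 to -0.16); 0.74 with no cell left out). Among sugar carriers, Slc2a3 (0.72 (0.53 to 0.91)) and Slc45a4 (0.61 (0.30 to 0.92)) were called higher in Tcf7WT, and Slc2a6 lower in both genotypes (-0.92 (-1.62 to -0.28) and -1.84 (-3.21 to -0.72)).

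Ion carriers moved in both directions. Slc26a10 stood at 31.6, 32.9, 58.4 and 80.0 CPM, with ratios of 0.88 (0.69 to 1.07) and 1.28 (1.11 to 1.45). It overlaps B4galnt1 on the other strand, which was itself lower in TCRγδ, at 309.9, 282, 235 and 232 CPM. The sulfate and chloride carrier Slc26a11 went the other way, with 19.4, 16.2, 7.55 and 5.19 CPM and ratios of -1.36 (-1.84 to -0.92) and -1.64 (-2.19 to -1.13). Slc9a9 was lower in both genotypes (-0.60 (-0.83 to -0.38) and -0.85 (-1.12 to -0.60)), the potassium-chloride cotransporter Slc12a7 in Tcf7WT (-0.59 (-0.80 to -0.39)) and Slc4a7 in Tcf7KO (-0.81 (-1.05 to -0.57)). Slc12a2 was lower in both (-0.96 (-1.89 to -0.14) and -1.53 (-3.05 to -0.30)), with the epithelial shares given above; with no cell left out its ratio in Tcf7KO was 1.93. Among zinc carriers, Slc39a6 (ZIP6) was higher and Slc39a10 (ZIP10) lower in Tcf7WT (0.59 (0.41 to 0.78) and -0.61 (-0.99 to -0.24)). In Tcf7KO, Slc39a14 and Slc39a5 were higher (0.81 (0.43 to 1.19) and 0.66 (0.21 to 1.10)) and Slc39a11 lower (-0.63 (-1.23 to -0.06); 0.51 with no cell left out).

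Single carriers of fatty acids, taurine and urea and 2 of the mitochondrial carriers were called lower in TCRγδ in both genotypes. Slc27a6 had 5.85, 3.01, 0.656 and 0.445 CPM (118, 55, 4 and 3 UMIs), with ratios of -3.16 (-5.06 to -1.76) and -2.76 (-5.08 to -1.14). The other fatty acid carriers of its family, Slc27a1 and Slc27a4, were not called, with log2 ratios of 0.30 and 0.53 and with 0.01 and 0.29. The taurine carrier Slc6a6 had 102, 95.4, 66 and 57.7 CPM and ratios of -0.63 (-0.79 to -0.48) and -0.72 (-0.89 to -0.57). The urea carrier Slc14a1 had 35.5, 36, 18.7 and 16 CPM and ratios of -0.92 (-1.22 to -0.64) and -1.17 (-1.48 to -0.87). Of the 37 mitochondrial carriers, Slc25a27 (UCP4; 5.26, 3.83, 1.64 and 1.19 CPM) and the pyrimidine nucleotide carrier Slc25a33 (15.5, 13.5, 9.03 and 8.61 CPM) were lower in both genotypes. Slc25a13 was lower in Tcf7WT, at -1.68 (-2.73 to -0.79). Slc15a2 was lower in TCRγδ in Tcf7WT (-0.91 (-1.47 to -0.39)). In Tcf7KO, Slc19a1 was lower (-1.32 (-1.95 to -0.75)), while Slc25a24, Slc22a15, Slc22a17, the riboflavin carrier Slc52a3 and the scaffold Slc9a3r2 were higher, at 0.59 to 0.93 on the log2 scale.

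The sort ratios were also computed within the granzyme-rich range. Of the members called over all cells, and so chosen for ratios far from 0, 22 of 26 in Tcf7WT and 29 of 31 in Tcf7KO had a ratio nearer to 0 there. In Tcf7WT, 1 member was called higher and 6 lower within it, in place of 10 and 16 over all cells, against 3.44% and 4.19% of all genes within it and 6.91% and 7.30% of them over all cells. In Tcf7KO the counts were 6 and 6 in place of 14 and 17, against 3.78% and 4.74% of genes. Of the 26 calls made in Tcf7WT, 4 were kept and 6 members had the other sign; of the 31 in Tcf7KO, 9 were kept. Fewer UMIs enter there, 3159561 in TCRβ Tcf7WT against 20159687, which widens the intervals. How many calls over all genes moved nearer to 0 or were kept is not given here. These counts of members are therefore not read as particular to carriers. Slc43a3 had -0.08 within the range, Slc26a10 -0.29, Slc26a11 0.02 and Slc16a3 0.03 in Tcf7WT. Slc16a13 stayed at 1.20 and 1.89 in Tcf7WT and Tcf7KO, and Slc7a5 at -1.33 and -0.79. Slc16a11 had 0.54 and 2.28 within the range, against 4.17 and 1.80 in the other cells.

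**Figure D5:**
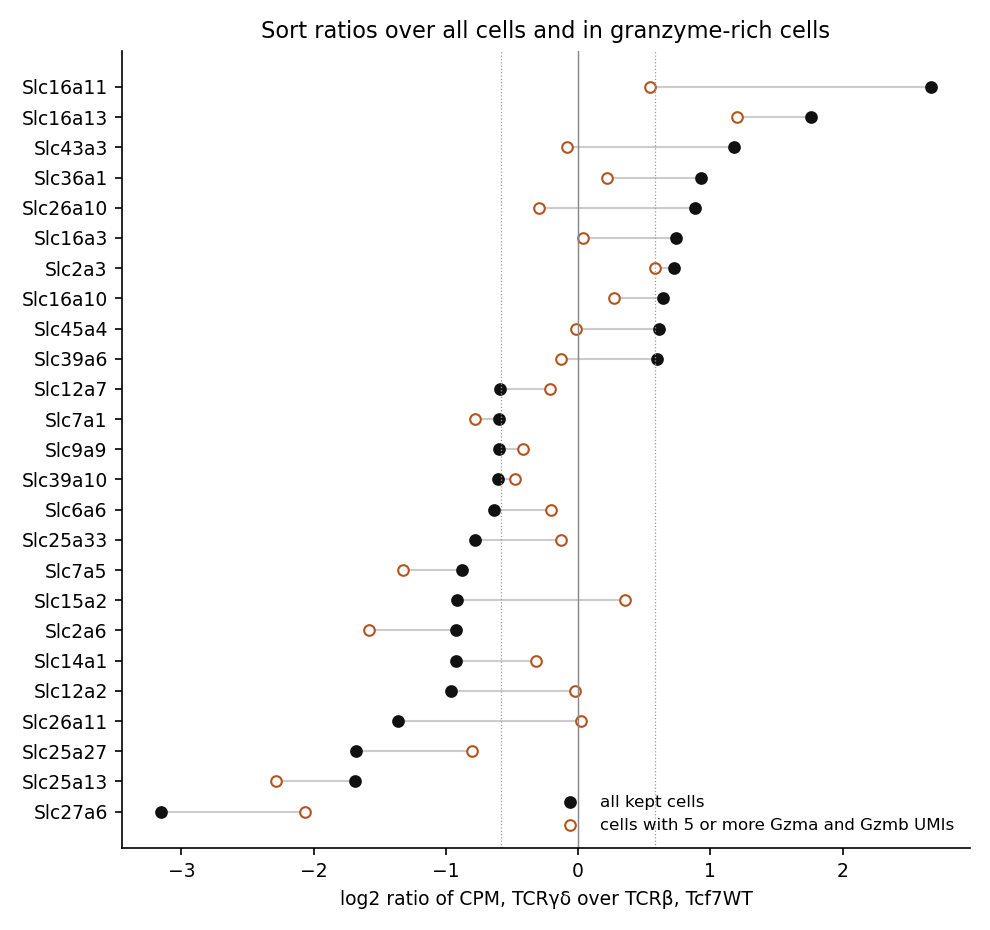
log2 ratio of CPM for TCRγδ over TCRβ in Tcf7WT (x axis) for 25 of the 26 members called over all kept cells (filled points) and within cells of 5 or more Gzma and Gzmb UMIs (open points), joined by a line; dotted lines mark 1.5-fold. Slc43a3, Slc26a10 and Slc26a11 move to near 0 or past it, whereas Slc16a13, Slc7a5 and Slc2a6 stay beyond 1.5-fold.

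The granzyme-rich range was then set against the other cells of the same library, a comparison chosen after the values were seen. Cells in the range had more UMIs (medians of 2944.5, 3425, 3302 and 4381, against 2354.5, 2576, 2903 and 3661). In TCRβ Tcf7WT, 15 of 168 members were called higher in the range and 10 lower, against 6.04% and 5.67% of genes. In TCRβ Tcf7KO 11 were higher and 9 lower, against 4.56% and 5.25%. In TCRγδ Tcf7WT 5 of 158 were higher and 9 lower (3.01% and 4.70%), and in TCRγδ Tcf7KO 7 of 157 and 12 (3.21% and 6.41%), where the other cells number 95.

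Of the carriers called higher in TCRγδ in at least 1 genotype, Slc26a10, Slc36a1, Slc16a11, Slc52a3 and Slc16a10 were also called higher in the range of both TCRβ libraries. Slc26a10 had log2 ratios of 1.42 (1.18 to 1.66) and 1.51 (1.26 to 1.76) there, and Slc36a1 1.07 (0.77 to 1.35) and 1.07 (0.79 to 1.35). Slc16a11 had 2.76 (2.18 to 3.34) and 2.45 (1.61 to 3.37). In TCRγδ Tcf7WT it was lower in the range, at 27.2 against 49.8 CPM (-0.87 (-1.28 to -0.45)), and in TCRγδ Tcf7KO higher (2.93 (1.06 to 5.99)). Slc52a3 had 1.002 (0.40 to 1.58) and 1.39 (0.88 to 1.91) in TCRβ, and Slc16a10 0.82 (0.34 to 1.29) and 0.61 (0.24 to 0.98). The zinc importer Slc39a4 (ZIP4), which was not called between sorts, had 0.62 (0.25 to 0.98) and 0.75 (0.45 to 1.05). Slc43a3 was higher in TCRβ Tcf7WT (1.93 (1.42 to 2.42)), with 0.19 (-0.33 to 0.71) in TCRβ Tcf7KO. Slc2a3 was called higher in the range of both TCRγδ libraries (0.95 (0.54 to 1.38) and 1.76 (0.52 to 3.40)).

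Lower in the range of all 4 libraries was Slc14a1, at -1.07, -0.66, -0.98 and -1.41. Slc38a2 was below 0 in each, at -0.60, -0.43, -0.35 and -0.71, and past 1.5-fold in TCRβ Tcf7WT and TCRγδ Tcf7KO. Slc25a27 (-1.91 (-3.56 to -0.64) and -0.80 (-1.63 to -0.03)), Slc26a11 (-1.51 (-2.17 to -0.91) and -0.62 (-0.99 to -0.26)) and Slc27a6 (-1.17 (-2.34 to -0.19) and -1.03 (-2.02 to -0.13)) were lower in the range of both TCRβ libraries. Slc15a2 was lower in the TCRβ Tcf7WT range (4.43 against 12 CPM), and in TCRβ Tcf7KO the values were 13.5 and 18.4 CPM.

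The carriers work with enzymes, chaperones and regulators, of which 28 of a list of 30 were measured. In TCRβ, 1 of the 28 was called higher in Tcf7KO and 2 lower, or 3.57% and 7.14%, beside the 1.79% and 2.35% of all genes. In TCRγδ 0 and 3 were, or 0% and 10.7%, beside 2.23% and 5.75%. Mt1 and Mt2, the zinc-binding metallothioneins, were lower in Tcf7KO of both sorts: Mt1 at -1.34 (-1.66 to -1.02) and -2.12 (-2.47 to -1.77), Mt2 at -2.32 (-2.92 to -1.76) and -2.80 (-3.35 to -2.28). Both were higher in TCRγδ than in TCRβ, Mt1 at 1.85 (1.62 to 2.08) and 1.07 (0.65 to 1.49) in Tcf7WT and Tcf7KO. Of the carriers of metals and haem, only Slc39a1 was called by genotype. Hexokinase Hk2, which traps imported glucose, was higher in TCRβ Tcf7KO (0.97 (0.73 to 1.22)), and the nucleoside kinase Dck lower in TCRγδ Tcf7KO (-0.93 (-1.42 to -0.44)). Between sorts, 2 of the 28 were higher and 3 lower in Tcf7WT (7.14% and 10.7%, beside 6.91% and 7.30% of all genes), and 2 and 4 in Tcf7KO (7.14% and 14.3%, beside 6.08% and 8.85%). Adk, which phosphorylates adenosine, was lower in TCRγδ (-1.64 (-2.36 to -0.99) and -1.27 (-1.94 to -0.65)), as was Myc (-0.68 (-0.86 to -0.50) and -0.59 (-0.78 to -0.39)). Bsg, the chaperone of the lactate carriers, had log2 ratios of -0.05 to -0.03 in the 4 comparisons.

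Over the 4 comparisons 45 of the 168 members were called at least once, and 74 stayed within 1.3-fold in all 4. The scaled epithelial share was highest for Slc12a2 and was under 10% for every other member in every library. In GENCODE M21, 167 of the 168 were found, and 73 of these overlap another gene, 30 on the same strand and 56 on the other. The overlaps are of whole genes, introns included. On the same strand, reads may be assigned to either gene. Whether reads were counted by strand is not given in the sources used here.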

How the data were processed

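The deposited files hold raw UMI counts per gene and cell in sparse matrices, 1 per library, listed as the authors deposited them; the labels' protocols name 10x 3′ chemistry (v2), and Seurat 3.0.0 and the builds GRCm38 and mm10 are given, with no role, per the submitters' processing notes. The aligner, the cell filter and doublet removal are not given in the sources used here; no doublet caller was run. The members and lists were chosen with earlier results of these data known. Counts were summed over kept cells per library, and CPM and log2 ratios computed with Python (numpy 2.4.6, pandas 2.3.3, scipy 1.17.1). Intervals of ratios and levels are exact, at 95%, from the counts (a binomial share for ratios, Poisson for levels). The calculation for ratios was tested on simulated counts. Intervals of the difference between sorts in genotype ratios are not exact but a normal approximation on the log scale. A call needs 1.5-fold, an interval excluding equality and 20 UMIs over both libraries; its background is all 11004 genes listed in 4 libraries with 100 or more UMIs. Scaled epithelial shares multiply a member's UMIs in left-out cells by the kept to left-out ratio of 15 other epithelial markers. Substrate classes follow family numbers, so the aromatic amino acid carrier Slc16a10 enters the counts and sums of the monocarboxylate class. Named members are the 10 highest and 10 lowest called ratios of each comparison, those called by genotype in both sorts, and those next to the threshold. The 3 with most UMIs in each class were also listed for naming, but only some of them are given with values. Those not given, such as Slc10a7, Slc16a6 and Slc20a1, include members called in no comparison. Further called members, members with wide differences between sorts, Slc5a3, Slc27a1, Slc27a4 and Slc39a4 were named after their values were seen. Alternatives used TMM factors from edgeR 4.0.16 and size factors from DESeq2 1.42.0, as scalings only, in R 4.3.3. The comparison of the granzyme range with the other cells was added after seeing the data. The values of 1 member that enters the counts, and a marker list of 1 further cell type, are not reported here.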

Additional observations from a re-analysis of the deposited data

Results flagged for a closer look

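For 4 members the intervals of 2 ratios under the same contrast lay on opposite sides of equality. None of these differences was tested, since each group is 1 library. Slc19a1, the reduced folate carrier, was higher in Tcf7KO in TCRβ (0.35 (0.04 to 0.66) on the log2 scale) and lower in TCRγδ (-0.73 (-1.47 to -0.01), from 42 and 28 UMIs). Slc28a2, the concentrative nucleoside carrier, was lower in TCRβ (-0.19 (-0.29 to -0.10)) and higher in TCRγδ (0.17 (0.03 to 0.31)). Slc39a1, the zinc importer ZIP1, was higher in TCRγδ than in TCRβ in Tcf7WT (0.50 (0.29 to 0.71)) and lower in Tcf7KO (-0.25 (-0.50 to -0.01)). Slc3a2, the CD98 heavy chain, was lower in TCRγδ in Tcf7WT (-0.07 (-0.15 to 0.00)) and higher in Tcf7KO (0.14 (0.08 to 0.20)). The latter pair share the same 4 libraries with their genotype ratios, so they restate the differences between sorts given above.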

How the results depend on the processing

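No paired analysis was possible because each group is 1 library. Of the 76 calls over the 4 comparisons, 64 were kept with TMM factors and with DESeq2 size factors, 60 with no cell left out as epithelial, 68 and 74 with cells of 3 or 5 or more epithelial UMIs left out (the cut of 5 was added after seeing the data), 67 with each cell weighing the same, 75 without cycling cells, 74 without the cell that gave a gene most UMIs and 75 with cells of 500 to 3500 genes. Within cells of 5 or more granzyme UMIs 22 were kept, and within the others 25. Fewer cells enter both. Slc35a5 by genotype in TCRγδ was kept in fewest of these 11 settings (3). By sort, Slc12a7 in Tcf7WT and Slc25a33 and Slc39a11 in Tcf7KO were kept in 5. Kept in 6 were Slc9a9 and Slc19a1 by genotype in TCRγδ, and Slc9a9 and Slc39a10 by sort in Tcf7WT. As reported, the counts of members called higher and lower were 2 and 6 (TCRβ genotype), 2 and 9 (TCRγδ genotype), 10 and 16 (sort in Tcf7WT) and 14 and 17 (sort in Tcf7KO). TMM factors gave 4 higher by genotype in TCRγδ and 10 lower by sort in Tcf7WT, and DESeq2 size factors 5 and 10; both scalings bring the median of all genes, between -0.10 and -0.06 as reported, to within 0.02 of 0. With no cell left out, 9 were higher by genotype in TCRγδ and 26 by sort in Tcf7KO. With each cell weighing the same, 0 were higher by genotype in TCRβ and 4 in TCRγδ. Within the granzyme range the counts were 5 and 10, 5 higher, 1 and 6, and 6 and 6; outside it they were 1 higher, 5 lower, 9 lower, and 4 and 4, in the same order of comparisons. At 2-fold they were 0 and 0, 1 and 4, 3 and 4, and 3 and 8. In TCRγδ by genotype, a minimum of 50 UMIs gave 1 higher and no demand on the interval 4. Apart from the counts as reported, shares over all genes are given only within the granzyme range. For the other settings, changes in these counts are therefore not read as particular to carriers. Single ratios changed sign in 17 cases, and the cause was not tested. With no cell left out, the sort ratio in Tcf7KO was 1.93 for Slc12a2, 0.74 for Slc35g1 and 0.51 for Slc39a11. Within the granzyme range, Slc10a1 had 0.34 by genotype in TCRβ, and the sort ratios in Tcf7WT were 0.36 for Slc15a2, -0.29 for Slc26a10, 0.023 for Slc26a11, -0.13 for Slc39a6, -0.083 for Slc43a3 and -0.016 for Slc45a4. Outside it, Slc19a1 had 1.252 by genotype in TCRγδ and 0.65 by sort in Tcf7KO, Slc16a10 -0.48 and Slc2a6 0.32 by sort in Tcf7WT, and Slc25a33 0.37, Slc39a11 0.33 and Slc2a6 0.80 in Tcf7KO. Without the member whose CPM differed most, a setting added after seeing the data, the class sums that changed sign were those of the amino acid carriers, at -0.10 by genotype in TCRγδ (without Slc3a2; 0.058 with it) and 0.0014 by sort in Tcf7KO (without Slc38a2), and of the sugar carriers, at 0.062 by genotype in TCRβ (without Slc50a1). The TCRγδ Tcf7KO cells outside the range number 95 and hold 413209 UMIs, which limits these. With a granzyme cut of 10, 18 and 14 members were called higher and lower in the range of TCRβ Tcf7WT in place of 15 and 10. The TCRγδ libraries hold about 3-fold fewer UMIs in all than the TCRβ ones, from fewer cells with more UMIs per cell. Members under 20 UMIs there therefore have wide intervals.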

Other observations

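Carriers under the threshold of 100 UMIs were left out of every comparison above, and a few had uneven counts, chosen here after their values were seen. Slc16a5 (MCT6), a monocarboxylate carrier, had 68, 18, 0 and 1 UMIs in the 4 libraries. Slc43a1 (LAT3), a carrier of branched-chain amino acids, had 47 and 42 UMIs in the TCRβ libraries and 2 in TCRγδ Tcf7KO, and is listed in 3 libraries. The TCRβ libraries hold about 3 times the UMIs of the TCRγδ libraries, which bears on such raw counts. A count of 0 allows up to 3 UMIs in a library.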
